A study of Mus musculus with 16 samples.

Results

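The complement system is a set of plasma and tissue proteins that tag cells and debris for removal. In the classical pathway the C1q complex, built from the A, B and C chains, binds its target and activates proteases that cleave C4 and then C3. In the central nervous system C1q is made mostly by microglia, C4 by astrocytes, oligodendrocytes and neurons, and C1q and C3 are known for their part in the removal of synapses. The 7 genes described here are the C1q chains C1qa, C1qb and C1qc, the central components C4b and C3, the receptor C3ar1, which binds the C3a fragment, and Serping1, the inhibitor of the C1 proteases. They were taken by gene name from the noncontrol rows of the arrays, which hold 27962 names, and 9 probes carried them, with C4b listed as C4 and 2 probes each for C3 and C3ar1. They had been selected on their levels at the 2 ages, so the differences between 40 and 80 days are given as values, without a test, while genotypes were tested within each age.

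The arrays held RNA of lumbar spinal cord of male mice on a B6SJL background. The 4 groups, each with 4 arrays, were wild-type (WT) mice of 40 days, SOD1G93A mice of 40 days, wild-type mice of 80 days and SOD1G93A mice of 80 days. SOD1G93A mice carry many copies of a mutant human SOD1 transgene, a model of amyotrophic lateral sclerosis, and both ages precede symptoms. The transgene is expressed in all cells and far above the normal gene, and wild-type mice are their nontransgenic age-paired controls, so that the mutation and the overexpression cannot be told apart. Every array carried Cy3-labeled RNA of 1 spinal cord sample and Cy5-labeled RNA of a common pool of neonatal heart, kidney and liver. Values are log2 ratios of Cy3 to Cy5 after normalization, so a difference of 1 between arrays means a doubled normalized ratio. A level by itself does not give the ratio of the signals. C1qa on replicate 1 of wild-type mice of 40 days had a level of 1.16 with 311 units in Cy3 and 1160 in Cy5. A level therefore compares samples for 1 gene and cannot rank genes. The arrays named replicate 1 to 4 in each group lay on slides 1 to 4, and each group had its own position on every slide, so a group cannot be told apart from its position.

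Between 46.7% and 56.1% of spots were well above background in Cy3. Of the 23 microglial genes measured, among them Aif1, Cx3cr1, Csf1r, P2ry12 and Tmem119, 0 were below background on every array, and neither was any of the 12 astrocyte genes or the 8 oligodendrocyte genes, while the probe of Chat, which marks motor neurons, was not well above background on any array. A pair of arrays stood apart. The mean log2 ratio of the microglial genes was 0.97 on replicate 3 of wild-type mice of 80 days and 1.34 on replicate 4 of SOD1G93A mice of 80 days, and it lay between 0.19 and 0.48 on the other arrays. Results of 80 days are therefore also given without this pair, an alternative chosen after seeing the data. The pair also had the highest C1qa values of all arrays, so this choice is not independent of the members. In bulk tissue, fewer cells of a type and less RNA per cell cannot be told apart.

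The probes decide what was measured, and the first 30 bases of each probe that stands for a detected member are shown for that reason, 5′ to 3′ as the array files give them. All lie on the minus strand of the mm7 mouse build.
C1qa: ccggccagctttctcagccattcggcagaa
C1qb: attctggggactacggggctacacagaaag
C1qc: tctgggaaccacctaatggtattattcctg
C4b: tcactggagcgaagggtggaggacaaggat
C3: attcacagaatctatggtggtttatggttg
Serping1: gtaaagagcagccaagacatgctgtcagtc
The C1q probes were placed on chromosome 4, that of C1qa at chr4:136274931-136274990, that of C1qb at chr4:136259100-136259159 and that of C1qc at chr4:136268288-136268347, and in RefSeq (GRCm38.p6) the 3 genes follow each other with no other protein-coding gene between them. The C4b probe lay at chr17:32815561-32815620 and the C3 probe at chr17:55414567-55414626. The Serping1 probe spans chr2:84609527-84611033, more than its own length of 60 bases, as a probe across an exon junction does. C4a, a gene near-identical to C4b, has a probe of its own that was not well above background on any array. Whether C4a RNA also binds the C4b probe was not tested.

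Because C1qb and C1qc varied together (r = 0.97 over the 16 arrays), the 250 bases before their start sites are shown, read from the RefSeq promoter table (GRCm38.p6), both on the minus strand. Capitals mark GAGGAA or its reverse complement, the core bound by PU.1, a transcription factor of the microglial and macrophage lineage.
C1qb, chr4:136886201-136886450: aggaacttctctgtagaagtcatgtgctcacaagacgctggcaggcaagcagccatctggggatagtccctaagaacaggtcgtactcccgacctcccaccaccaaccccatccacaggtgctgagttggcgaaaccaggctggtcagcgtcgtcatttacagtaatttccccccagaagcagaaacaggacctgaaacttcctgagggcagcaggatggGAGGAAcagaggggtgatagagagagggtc
C1qc, chr4:136892915-136893164: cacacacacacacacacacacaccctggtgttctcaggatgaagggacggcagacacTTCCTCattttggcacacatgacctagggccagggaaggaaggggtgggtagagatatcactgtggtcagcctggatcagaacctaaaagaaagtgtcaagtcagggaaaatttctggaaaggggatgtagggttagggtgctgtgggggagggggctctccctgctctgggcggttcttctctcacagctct
Each window held 1 match, on opposite strands, and 23.3% of the 32851 promoters of the table hold such a match in the same window on either strand. The C/EBP motif TTGCNNAA, found in 9.56% of all promoters, and the STAT motif TTCNNNGAA, found in 7.02%, had 0 matches in both. The C3 promoter had 1 match to TTGCNNAA, and that of C3ar1 had none of the 3 motifs. No window was available for C1qa, C4b or Serping1, so C1qb and C1qc could not be set beside C1qa. The motifs do not overlap, and a match describes the letters only.

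C4b was the member with the largest difference between the ages. Its product is the C4 protein, cleaved by the C1 proteases to build the classical C3 convertase. In wild-type mice its log2 ratios were 3.04, 2.31, 2.57 and 1.71 at 40 days and 3.23, 3.72, 4.48 and 3.93 at 80 days. In SOD1G93A mice they were 1.72, 3.29, 2.35 and 2.48 at 40 days and 3.56, 3.41, 3.81 and 4.63 at 80 days. In both genotypes every array of 80 days lay above every array of 40 days. The means were 2.41 ± 0.557 (SD, n = 4) and 3.84 ± 0.521 in wild-type mice, and 2.46 ± 0.646 and 3.85 ± 0.543 in SOD1G93A mice. The order of the groups was thus wild-type and SOD1G93A of 40 days, then wild-type and SOD1G93A of 80 days, and neighbors of the same age differed by far less than their SD. The level at 80 days was 2.70-fold that at 40 days in wild-type mice (log2 difference 1.43, SE 0.348) and 2.63-fold in SOD1G93A mice (1.39, SE 0.348). In each genotype the C4b probe had the highest difference of the 21951 probes measured, which describes the choice of the gene and tests nothing.

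Within slides, C4b was higher at 80 days on 4 of 4 slides in both genotypes, by 0.18 to 2.22 in wild-type and by 0.12 to 2.15 in SOD1G93A mice. Its Cy3 signal ran from 259 to 898 units at 40 days and from 790 to 3740 units at 80 days. The Cy5 signal of the same probe, which reads the common pool, also varied, from 446 to 1580 units, and correlated with its Cy3 signal, both on the log2 scale, with r = 0.83 over the 16 arrays and with r = 0.67 without the pair that stood apart. The cause of this was not tested, and with the Cy3 channel alone the difference was 1.63 in each genotype. Without the pair of arrays that stood apart the differences were 1.22 and 1.14.

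**Figure D1:**
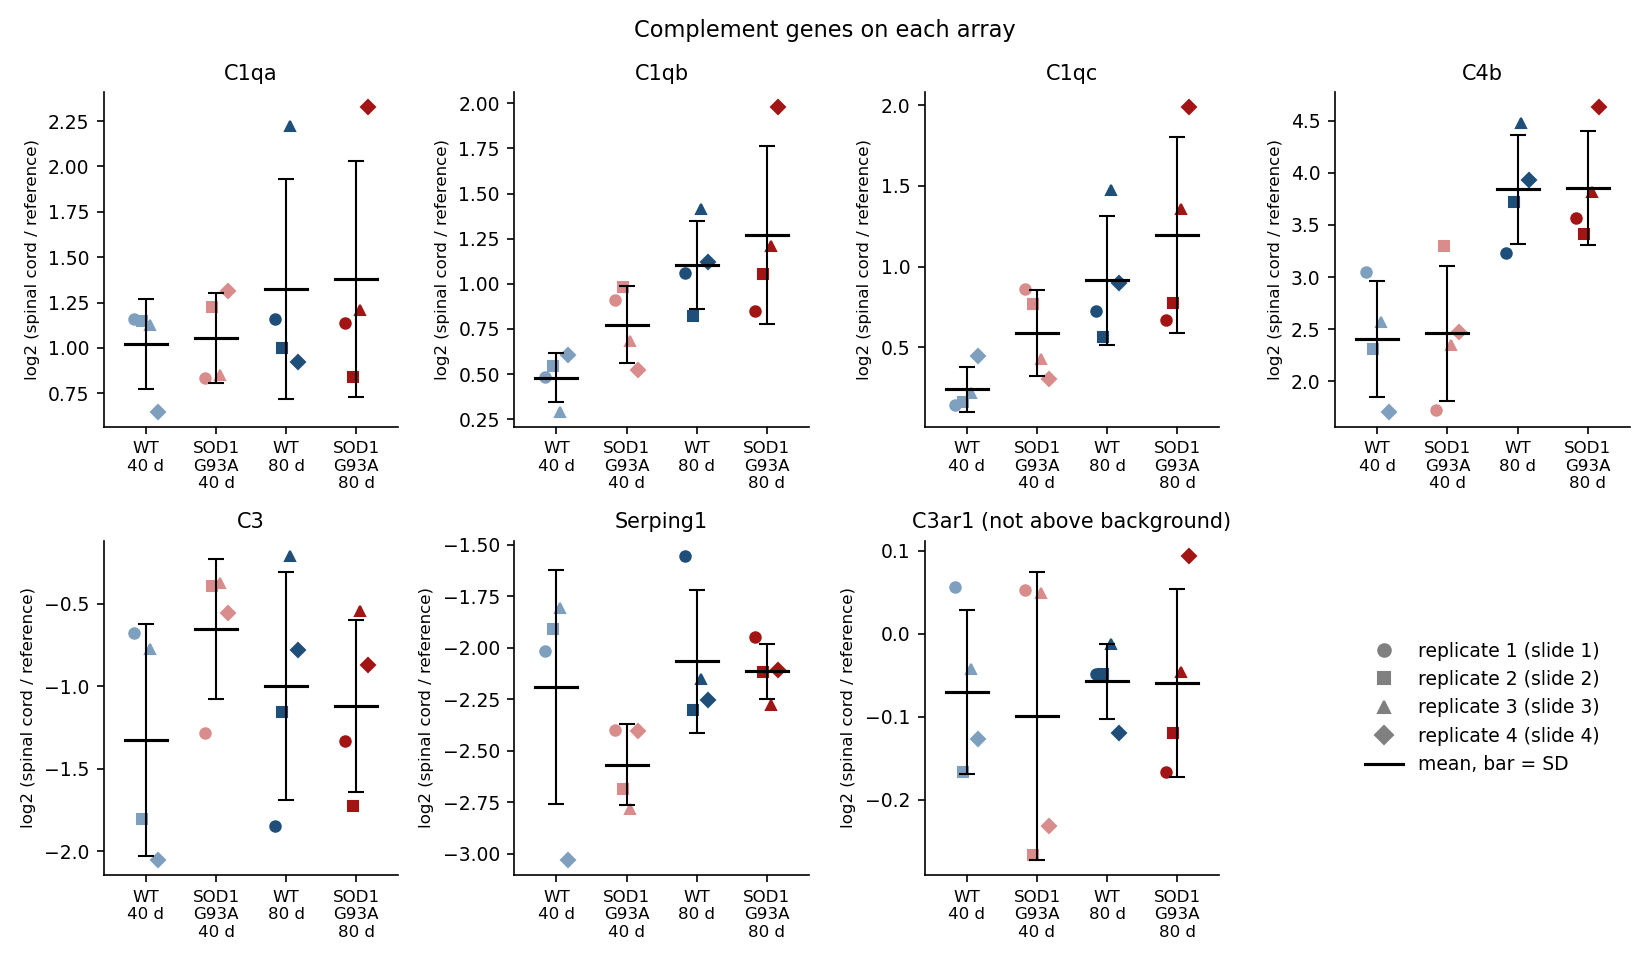
Log2 ratio of spinal cord (Cy3) to reference pool (Cy5) of 7 complement genes, 1 panel a gene with its own vertical scale, in 4 groups of 4 arrays. Points are arrays, shaped by replicate number, lines are means and bars are SD; C4b separates the ages in both genotypes (lowest at 80 days 3.23 in wild-type and 3.41 in SOD1G93A mice), and replicate 3 of wild-type and replicate 4 of SOD1G93A mice of 80 days are highest in their groups for C1qa, C1qb, C1qc and C4b.

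The B and C chains of C1q followed the same order of ages at lower size. C1qb read 0.48, 0.54, 0.29 and 0.60 in wild-type mice of 40 days and 1.06, 0.82, 1.41 and 1.12 in those of 80 days, with no overlap. In SOD1G93A mice it read 0.91, 0.98, 0.68 and 0.52 at 40 days and 0.85, 1.05, 1.21 and 1.98 at 80 days, and the ages overlapped. C1qc read 0.14, 0.16, 0.22 and 0.44 in wild-type mice of 40 days and 0.72, 0.57, 1.48 and 0.90 in those of 80 days, again apart. In SOD1G93A mice C1qc read 0.86, 0.77, 0.43 and 0.31 at 40 days and 0.67, 0.77, 1.36 and 1.99 at 80 days. For both chains the group means stood, from low to high, in the order wild-type of 40 days, SOD1G93A of 40 days, wild-type of 80 days and SOD1G93A of 80 days.

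The C1qb level at 80 days was 1.54-fold that at 40 days in wild-type mice (log2 difference 0.62, SE 0.188) and 1.41-fold in SOD1G93A mice (0.50, SE 0.188). For C1qc it was 1.60-fold (0.67, SE 0.242) and 1.52-fold (0.61, SE 0.242). Within slides both chains were higher at 80 days on 4 of 4 slides in wild-type mice and on 3 of 4 in SOD1G93A mice. Without the pair of arrays that stood apart, the differences of C1qb were 0.52 in wild-type and 0.26 in SOD1G93A mice, and those of C1qc were 0.49 and 0.34.

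For the A chain the ages overlapped in both genotypes. C1qa read 1.16, 1.15, 1.12 and 0.65 in wild-type and 0.84, 1.22, 0.85 and 1.32 in SOD1G93A mice of 40 days. At 80 days it read 1.16, 1.00, 2.22 and 0.92 in wild-type and 1.14, 0.84, 1.21 and 2.33 in SOD1G93A mice. Its means differed between the ages by 0.31 (SE 0.293) in wild-type and 0.32 (SE 0.293) in SOD1G93A mice. Without the 80-day replicate 3 of wild-type and replicate 4 of SOD1G93A mice they were 0.008 and 0.007. These 2 arrays had the highest C1qa values, so leaving them out had to lower the differences, and nothing follows from that. All 3 chains are encoded side by side and join in 1 protein, but their probes varied unequally. Over the 16 arrays C1qb and C1qc correlated with r = 0.97, and with r = 0.92 without the pair of arrays. C1qa correlated with C1qb with r = 0.67 and with C1qc with r = 0.69, and with r = -0.08 and -0.07 without the pair.

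C3, the component on which all complement pathways converge, differed between the ages in no common direction. Its main probe, averaged over 10 spots, read -0.68, -1.80, -0.78 and -2.06 in wild-type and -1.28, -0.40, -0.38 and -0.56 in SOD1G93A mice of 40 days. At 80 days it read -1.85, -1.16, -0.21 and -0.78 in wild-type and -1.33, -1.73, -0.54 and -0.87 in SOD1G93A mice. All groups overlapped. The 80-day mean was 0.33 (SE 0.364) above the 40-day mean in wild-type mice and 0.47 below it (difference -0.47, SE 0.364) in SOD1G93A mice. Within slides the difference was above 0 on 3 of 4 slides in wild-type and on 0 of 4 in SOD1G93A mice. The genotype difference at 80 days minus that at 40 days was -0.80 (SE 0.515), given without a test.

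Liver, 1 of the tissues of the pool, is known as the main source of plasma C3. The C3 probe read 38600 to 59200 units in Cy5 and 961 to 2610 units in Cy3, and the log2 signals of its channels correlated with r = -0.195 over the 16 arrays. The second C3 probe, at chr17:55435522-55435679, was well above background in Cy3 on 1 array only and was not tested. C3ar1 was not well above background on any array with either probe (chr6:122885659-122885718 and chr6:122885185-122885244), at 38 to 48 units of Cy3, so its level in spinal cord was not measurable here and no difference is given.

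Serping1, whose product blocks C1r and C1s, read -2.02, -1.91, -1.81 and -3.03 in wild-type and -2.40, -2.68, -2.78 and -2.41 in SOD1G93A mice of 40 days. At 80 days it read -1.55, -2.30, -2.15 and -2.26 in wild-type and -1.95, -2.12, -2.28 and -2.11 in SOD1G93A mice. The ages overlapped in wild-type mice (difference 0.13, SE 0.218) and lay apart in SOD1G93A mice (0.45, SE 0.218, above 0 on 4 of 4 slides). The 10 meningeal fibroblast genes measured had a median difference of 0.44 in SOD1G93A mice, with 9 of 10 above 0, and of 0.08 in wild-type mice, with 6 of 10 above 0. Their part in the Serping1 difference was not tested. Without replicate 4 of wild-type mice of 40 days the wild-type difference was -0.16.

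Separations of the ages were also counted over all probes. Of the 6 genes with a measured level, C1qb, C1qc and C4b did not overlap in wild-type mice, where 7.66% of probes did not. In SOD1G93A mice C4b and Serping1 did not overlap, where 12.4% of probes did not. Since the ages chose the members, nothing follows from these counts. Over the 6 genes with a measured level, C3ar1 left out, the median difference was 0.48 in wild-type and 0.48 in SOD1G93A mice, beside medians of 0.01 and 0.01 over all probes measured. Without the pair of arrays it was 0.32 and 0.30. With the background values of C3ar1 counted as a seventh gene it was 0.33 and 0.45.

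**Figure D2:**
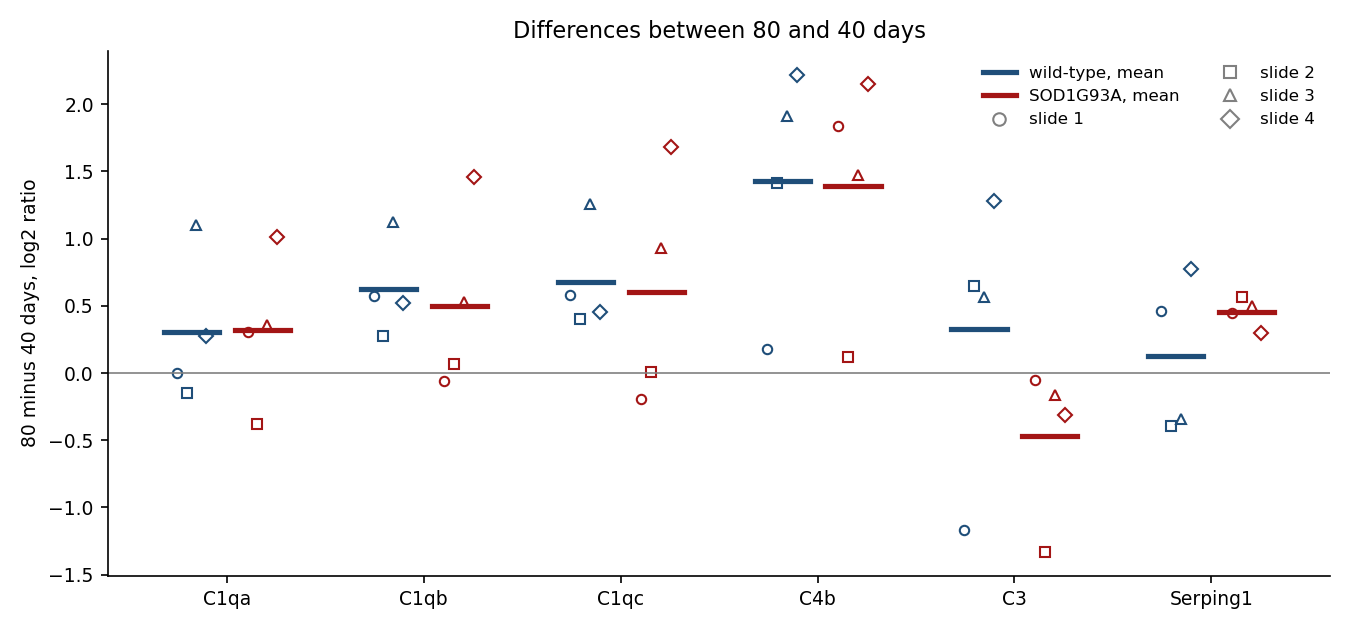
Difference of the log2 ratio between 80 and 40 days (vertical axis) of 6 complement genes, wild-type in blue and SOD1G93A in red. Lines are differences of group means and open symbols the differences within each of 4 slides; C4b is above 0 on all slides, while C3 is below 0 on all slides in SOD1G93A mice and on 1 slide in wild-type mice.

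Whether the transgene changed complement before symptoms was tested within each age over all probes above background. At 40 days 2 of the 6 members tested, C1qb and C1qc, were higher in SOD1G93A mice at an unadjusted p under 0.05, where 4.47% of all probes passed in either direction and 2.44% as higher. C1qb was 1.23-fold higher (log2 difference 0.29, SE 0.107, 95% interval 0.05 to 0.53, limma p = 0.0213, adjusted p = 0.998, exact permutation p = 0.0857). C1qc was 1.27-fold higher (0.35, SE 0.125, interval 0.07 to 0.63, limma p = 0.0189, adjusted p = 0.998, exact permutation p = 0.0857). For both the groups overlapped, and 3 of 4 slides showed the direction, replicate 4 being the exception. Since the B and C chains varied together, they are not separate observations. Both lost the call in limma where the bright local backgrounds described in the methods were kept, with 16 arrays in the fit, and without replicate 1 or replicate 2 of the SOD1G93A group. Without replicate 2 the differences were 0.22 and 0.29. C1qb alone lost it without replicate 3 of the wild-type group (difference 0.23), from Cy3 signals without the pool (0.21) and in the series matrix that the authors normalized (0.17).

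The other members did not pass at 40 days. C1qa differed by 0.04 (interval -0.28 to 0.36, limma p = 0.803, exact permutation p = 0.914). C4b differed by 0.05 (interval -0.69 to 0.80, limma p = 0.88, exact permutation p = 0.829). C3 had the 9th highest difference of 21336 probes, 0.67 (SE 0.323, interval -0.04 to 1.39), but its arrays spread widely and it did not pass (limma p = 0.0631, exact permutation p = 0.171). It passed in limma without replicate 1 (difference 0.89) or replicate 3 (0.86) of wild-type mice or without replicate 1 of SOD1G93A mice (0.88). Serping1 differed by -0.38 (SE 0.237, interval -0.90 to 0.15, limma p = 0.144, exact permutation p = 0.229). Without replicate 4 of wild-type mice, the array with its lowest value, the difference was -0.66 and passed in limma.

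At 80 days 0 of the 6 members passed, where 6.86% of all probes did, with limma and also by the exact permutation test. The differences were 0.05 for C1qa (interval -0.71 to 0.82), 0.17 for C1qb (-0.32 to 0.65) and 0.28 for C1qc (-0.35 to 0.91), with exact permutation p = 0.8, 0.629 and 0.543. They were 0.01 for C4b (-0.64 to 0.67), -0.12 for C3 (-0.86 to 0.63) and -0.05 for Serping1 (-0.39 to 0.29), with exact permutation p = 0.971, 0.8 and 0.943. The intervals of C1qb and C1qc include differences as large as those seen between the ages. On slide 4, which holds the high SOD1G93A array, the 3 C1q chains were higher in SOD1G93A mice by 0.86 to 1.40, and on slide 3, which holds the high wild-type array, they were lower by 0.12 to 1.01.

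**Figure D3:**
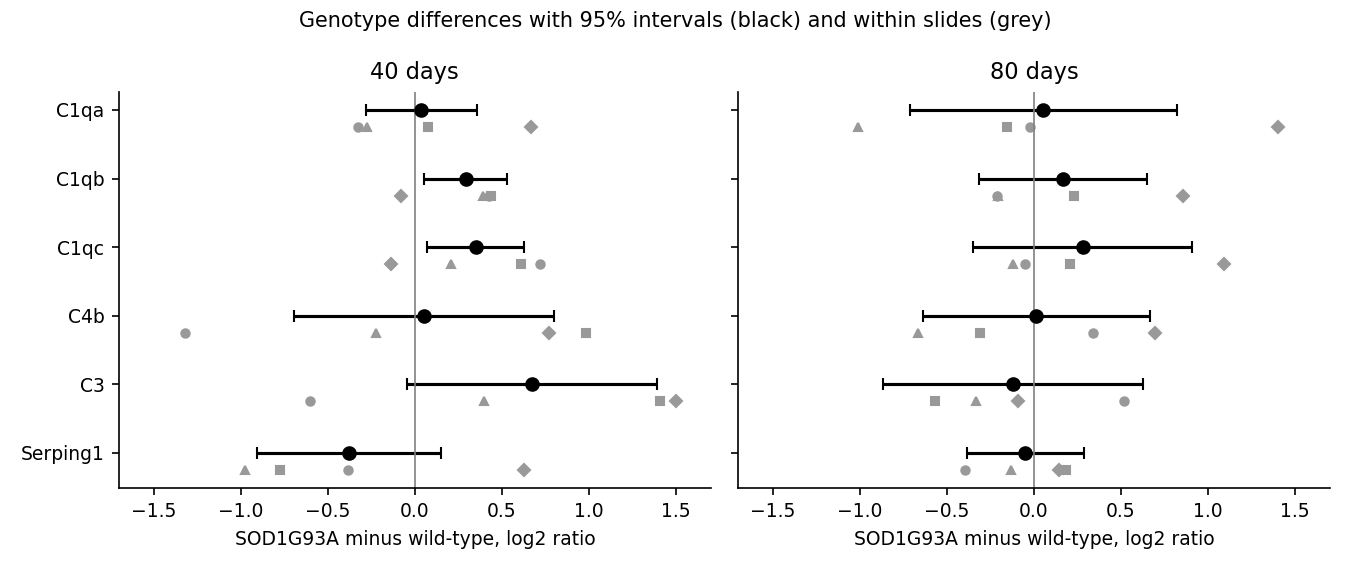
Difference of the log2 ratio, SOD1G93A minus wild-type (horizontal axis), of 6 complement genes at 40 days (left) and 80 days (right). Black points and bars are limma differences with 95% intervals and grey symbols the differences within slides 1 to 4 (circle, square, triangle, diamond); the intervals of C1qb and C1qc at 40 days lie above 0 and the other 10 include 0.

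The C1q levels were set beside those of the microglial genes on the same arrays. The mean standardized log2 ratio of C1qa, C1qb and C1qc correlated with the mean log2 ratio of the 23 microglial genes with r = 0.87 over 16 arrays. Without the pair of arrays that stood apart, r was 0.09 over 14 arrays, so the relation rests on them. Within the 8 arrays of 40 days r was -0.18, and within the 8 of 80 days, which hold the pair, it was 0.98. The spread of the microglial genes grew with that of C1q at 80 days. Aif1, which encodes the microglial protein Iba1, ranged from 0.61 to 0.75 at 40 days and from 0.52 to 1.72 at 80 days. Csf1r, the receptor for the growth factor on which microglia depend, ranged from 0.66 to 0.98 and from 0.65 to 1.75. Cd68, a lysosomal protein of phagocytes, ranged from -0.23 to 0.02 and from -0.13 to 1.07. P2ry12, a receptor of resting microglia, ranged from 1.22 to 1.67 at 40 days and from 0.86 to 1.49 at 80 days, and was not higher in the group means of 80 days. Cx3cr1 reached 2.16 on the high SOD1G93A array, against 1.02 to 1.51 elsewhere.

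Between the ages the differences of single microglial genes ran from -0.14 to 0.39 in wild-type and from -0.15 to 0.63 in SOD1G93A mice, the last value being that of Trem2, named after its values were seen. In wild-type mice 0 of 23 passed at an unadjusted p under 0.05 in limma, where 15.1% of probes did, and the median difference was 0.10. In SOD1G93A mice 2 passed, both higher, where 16.9% of probes did, and the median difference was 0.24. One of these was Tmem119, a microglial surface protein (0.27, limma p = 0.0328, adjusted p = 0.252, exact permutation p = 0.114). Between genotypes 2 of 23 were lower at 40 days, where 2.03% of all probes were, and the median difference was -0.01 with 10 of 23 above 0. At 80 days 0 passed in limma at an unadjusted p under 0.05, where 6.86% of all probes did. Of the 12 astrocyte genes 4 were higher in SOD1G93A mice at 40 days, beside 2.44% of all probes, Gfap among them (0.24, limma p = 0.0162, adjusted p = 0.998, exact permutation p = 0.0286). The list mean at 40 days ranged from 2.74 to 2.82 in wild-type and from 2.81 to 2.95 in SOD1G93A mice. At 80 days the list mean ranged from 2.73 to 3.00 and from 2.68 to 3.03. There 1 of the 12 astrocyte genes passed between genotypes, as lower, beside 6.86% of all probes in either direction. Between the ages 2 of the 12 were higher in wild-type mice, beside 6.77% of all probes, and 0 were lower. In SOD1G93A mice 1 was higher, beside 8.64%, and 3 were lower, beside 8.28%. Of the 8 oligodendrocyte genes 4 in wild-type and 5 in SOD1G93A mice were lower at 80 days, beside 8.29% and 8.28% of all probes, and 0 were higher. Between genotypes 3 of the 8 were higher in SOD1G93A mice at 40 days, beside 2.44% of all probes, and 2 at 80 days, beside 3.74%. The part of these cell types in the complement values was not tested.

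**Figure D4:**
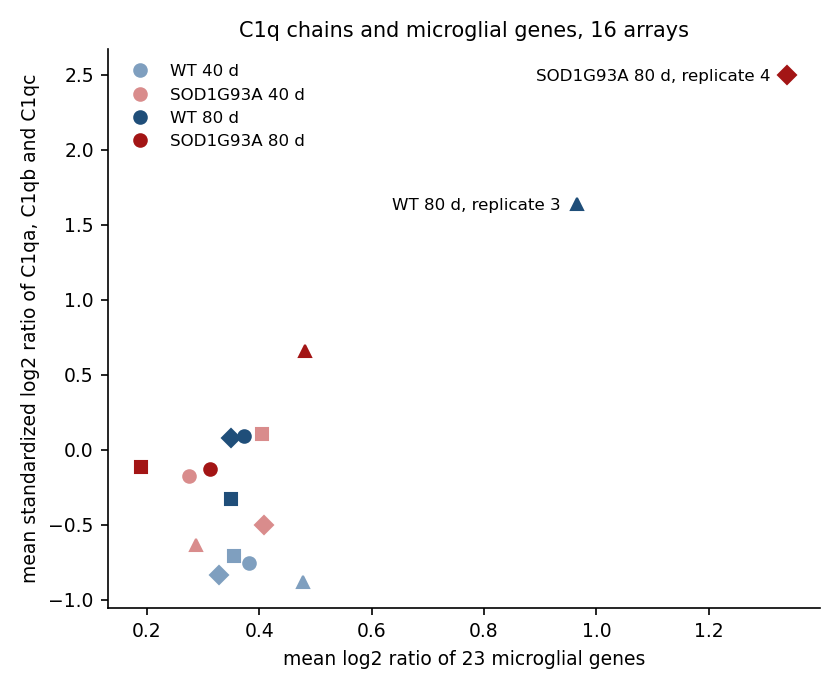
Mean standardized log2 ratio of C1qa, C1qb and C1qc (vertical axis) against the mean log2 ratio of 23 microglial genes (horizontal axis) on 16 arrays, colored by group and shaped by replicate number. Replicate 3 of wild-type and replicate 4 of SOD1G93A mice of 80 days lie apart at 0.97 and 1.34, and r is 0.09 among the other 14 arrays.

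Among 15557 genes outside the members, those most like the 3 C1q chains over the 16 arrays were Trem2 (r = 0.95), Itgb2, Vav1, Bcl3, Ch25h, Lgals3bp, Socs3, Cd68, Psmb8 and Ctsd (r = 0.91). Trem2 is a microglial lipid receptor, Itgb2 the beta chain of the complement receptors CR3 and CR4, and Ctsd a lysosomal protease. Without the pair of arrays that stood apart, r was 0.74 for Trem2, 0.65 for Itgb2 and 0.75 for Psmb8, an immunoproteasome subunit, and it was lowest for Ctsd, at 0.48. Over these 10 genes r ran from -0.53 to 0.75 within the arrays of 40 days, negative for Bcl3, Cd68 and Ctsd, and from 0.897 to 0.998 within those of 80 days. The genes most like C4b were Rida (r = 0.87), a transcript named only by its Ensembl identifier (r = 0.86), Ccdc88 (r = 0.85), Tmem176a (r = 0.84) and Bdh2 (r = 0.83). An r over both ages includes the age difference for which C4b was chosen. Within the arrays of 40 days r ran from -0.107 (Ccdc88) to 0.777, with 0.234 for Rida. Within those of 80 days it ran from 0.246 (Bdh2) to 0.919, and without the pair from 0.747 to 0.898. C4b itself correlated with C1qb with r = 0.76 over all arrays, 0.59 without the pair, -0.01 within the 8 arrays of 40 days and 0.81 within the 8 of 80 days. These are descriptions over arrays that share the reference pool and, in groups of 4, their slide.

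Serping1 varied with another set of genes. Its log2 ratio correlated with the mean of 10 meningeal fibroblast genes, among them the collagens Col1a1 and Col1a2 and the proteoglycan Dcn, with r = 0.93 over 16 arrays. The relation was similar within the 8 arrays of 40 days (r = 0.96) and of 80 days (r = 0.86). The list mean was -1.98, -1.59, -1.77 and -3.76 in wild-type and -2.61, -2.99, -3.67 and -2.30 in SOD1G93A mice of 40 days, so the array with the lowest Serping1 was also that with the lowest fibroblast genes. At 80 days it ranged from -2.73 to -1.43 in wild-type and from -2.61 to -2.07 in SOD1G93A mice. Between the ages 2 of 10 were higher in SOD1G93A mice, beside 8.64% of all probes, and 0 passed in wild-type mice, where 15.1% of all probes did. The list had 0 of 10 genes that passed between genotypes at either age, beside 4.47% and 6.86% of all probes. All 10 were on the lower side in SOD1G93A mice at 40 days, as Serping1 was, with a median of -0.64 beside 0.003 over all probes. The genes of the list share their arrays, so these are not separate observations. How much meninx each cord carried was not tested. For C3 the closest of the cell type lists compared was that of astrocytes (r = 0.68 over 16 arrays, 0.74 within 40 days and 0.74 within 80 days).

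**Figure D5:**
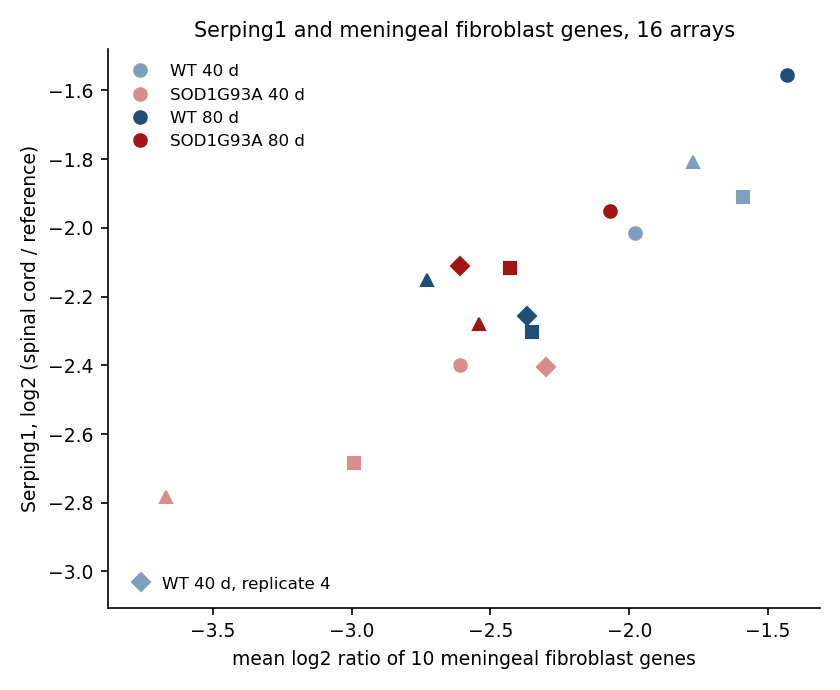
Log2 ratio of Serping1 (vertical axis) against the mean log2 ratio of 10 meningeal fibroblast genes (horizontal axis) on 16 arrays, colored by group and shaped by replicate number. The points follow 1 line (r = 0.93), with replicate 4 of wild-type mice of 40 days lowest on both axes.

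The remaining complement genes were counted as a list. Of 42 genes measured by the arrays from a list of initiators, regulators, receptors and terminal components, 15 were well above background on all 16 arrays, 11 on none, and 21 could be tested between genotypes at 40 days and 25 in the other comparisons. Between genotypes 0 of 21 passed at 40 days and 0 of 25 at 80 days in limma at an unadjusted p under 0.05 and also in the exact permutation test, beside 4.47% and 6.86% of all probes. Other settings called up to 7 at 40 days and up to 3 at 80 days, as given in the closing section. The share of all probes called in those settings was not counted, so nothing follows from these counts about complement.

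Between the ages 7 of 25 passed in wild-type mice, 5 higher (6.77% of all probes were higher) and 2 lower (8.29%), and 3 of 25 passed in SOD1G93A mice, 2 higher (8.64% of all probes) and 1 lower (8.28%). Of these 0 passed at an adjusted p under 0.05, and the median difference of the 25 was 0.01 and 0.03. Among the higher genes, Cfb, C1ra and Fcna were above background often enough to be tested only through their 80-day arrays. That choice favors a higher level at 80 days, so nothing follows from the p-values of these genes or from the counts that include them. C2, the protease that joins cleaved C4, was higher at 80 days by 0.40 in wild-type (limma p = 0.0126, exact permutation p = 0.0857) and by 0.43 in SOD1G93A mice (limma p = 0.00747, exact permutation p = 0.0286). Its group ranges were -2.75 to -1.99 and -2.02 to -1.55 in wild-type mice, which overlap, and -2.66 to -2.39 and -2.21 to -1.94 in SOD1G93A mice, which do not. Cfb, the counterpart of C2 in the alternative pathway and its neighbor on chromosome 17, was higher in wild-type mice by 0.24 (limma p = 0.00268, exact permutation p = 0.0286) and differed by 0.10 in SOD1G93A mice, where it did not pass. Whether the age difference of Cfb differed between genotypes was tested and did not pass (difference of differences -0.14). Clu, or clusterin, which keeps the terminal complex from inserting in membranes, was higher by 0.22 in wild-type (limma p = 0.0304, exact permutation p = 0.0286) and by 0.20 in SOD1G93A mice (limma p = 0.0403, exact permutation p = 0.0857).

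C1ra, a protease of the C1 complex, was higher in wild-type mice by 0.20 (limma p = 0.0168, exact permutation p = 0.0571) and differed by 0.15 in SOD1G93A mice, where it did not pass. On the other side, Cd93, an endothelial and myeloid receptor once described as a C1q receptor, was lower at 80 days in wild-type (-0.33, limma p = 0.00401, exact permutation p = 0.0571) and in SOD1G93A mice (-0.32, limma p = 0.00586, exact permutation p = 0.0286). Masp1, a protease of the lectin pathway, was lower in wild-type mice (-0.26, limma p = 0.0196, exact permutation p = 0.0571) and differed by 0.01 in SOD1G93A mice, where it did not pass. The seventh gene that passed was Fcna, a ficolin, higher in wild-type mice by 0.18 (limma p = 0.0294, exact permutation p = 0.0571) and named after its values were seen. Fcna was well above background on 3 of the 16 arrays, and Cfb and C1ra on 12 each. As said above, Cfb, C1ra and Fcna were tested only through their 80-day arrays, so nothing follows from their p-values. Among genes not well above background on any array were C4a, C5ar1, C8a, C8b, C9, Mbl1, Mbl2 and Vsig4, and C6 was above background on 1 array only. Of the terminal components listed, Hc, which encodes complement C5, was well above background on 16 arrays and C8g on 13. Both were dim in Cy3. Hc read 82.5 to 100 units beside 38500 to 57800 units of the pool in Cy5, and C8g had a mean of 54.8 units. Afp, a gene of the liver list, was well above background on 14 arrays at 48.7 to 59.1 units of Cy3. Whether such dim signals come from cord RNA was not tested.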

How the data were processed

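Lumbar spinal cord RNA of 16 samples, 4 for each genotype at each age, was hybridized against a common reference on 2-color arrays. Spot intensity values were deposited as the authors extracted them with Agilent Feature Extraction (version 9.5.3.1 in the submitters' processing notes). In the series matrix the log2 values were normalized by the authors, separately for each age, so it served within an age only. The members and gene lists were chosen with earlier results of these data known.

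Median signals were corrected with normexp (offset 50) in limma 3.58.1 and R 4.3.3. Local backgrounds more than 20 units above their spot were first set to the median background of the array, because such spots distort the correction. There were 4 on replicate 3 of wild-type and 6 on replicate 4 of SOD1G93A mice of 40 days. Replicate 4 of SOD1G93A mice of 80 days, an array of the pair that stood apart, had 63. Ratios were normalized by loess within arrays and by quantiles of mean intensity between arrays, without control and outlier spots. Low signals are pulled toward the offset, which understates changes of dim genes. Of 41174 probes, 22951 were named through RefSeq accessions and the rest kept the name in the files. The brightest probe in Cy3 stood for a gene. Tested probes had a Cy3 signal well above background on 3 or 4 arrays of some group, with no fewer than 2 values in any group.

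Genotypes were compared on the 8 arrays of an age and ages on all 16, with limma's moderated test, two-sided, called at an unadjusted p under 0.05 as in the study's methods, with Benjamini-Hochberg adjustment beside it. Single genes had a two-sided exact permutation test, whose smallest p is 0.0286. The labels call the samples biological replicates. Precision is limited by having 4 arrays a group. Same-numbered samples share a slide. Their deviations from the group means correlated with r between -0.178 and 0.213, so slide was used as a replicate block only as an alternative, and differences within slides are given. The fits were tested on simulated data.

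Genes named were all members, the other complement genes past the threshold between genotypes or among the 6 largest between ages, fixed marker genes, and the 10 and 5 genes most like C1q and C4b. Alternatives changed 1 choice at a time: bright backgrounds kept, other background corrections, mean or processed signals, no loess, the Cy3 channel alone, the series matrix, other filters, outlier spots kept, 16 arrays, array weights, an eBayes trend, the block, each array left out, the mean of a gene's probes, the exact test and adjusted p-values. Lists of endothelial, erythrocyte, neuronal and liver genes were also measured, and 0 to 1 gene of each passed in any 1 comparison. Figures were drawn with matplotlib 3.10.9.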

Additional observations from a re-analysis of the deposited data

Results flagged for a closer look

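In wild-type mice of 40 days, replicate 4 lay far below the other arrays for C1qa, at 0.65 beside 1.12 for the next lowest, a gap of 0.931 of the group's range. The same array was lowest for Serping1, at -3.03 beside -2.02, a gap of 0.83 of the range. These are 2 of 24 groups of 4 arrays checked, and chance alone gives such a gap in about 1 in 20. Of all arrays, this replicate 4 had the lowest share of spots well above background in Cy3 (46.7%) and the most outlier spots (301). Whether this bears on its values was not tested. The genotype difference of Gfap was lower at 80 than at 40 days (difference of differences -0.406 by limma, adjusted p = 0.725). Of 15 named genes outside the members checked in this way, 1 passed at an unadjusted p under 0.05. Of all 21951 probes, 683 passed as higher and 783 as lower. In the list of 12 astrocyte genes Gfap was 1 of 4 that passed, all lower. The others were Slc1a2 (-0.453), Slc1a3 (-0.397) and S100b (-0.305), named after their values were seen.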

How the results depend on the processing

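The difference of C4b between 80 and 40 days stayed between 1.08 and 1.64 in wild-type and between 1.14 and 1.67 in SOD1G93A mice over the alternatives run. The median difference over the 6 genes with a measured level, chosen after seeing the data, ran from 0.321, without replicate 3 of 80 days, to 0.625, without replicate 1 of 80 days, in wild-type mice. In SOD1G93A mice it ran from 0.303, without replicate 4 of 80 days, to 0.537. The genotype calls of C1qb and C1qc at 40 days depended on the processing. Of the members, 0 were called at 40 days with bright backgrounds kept, with 16 arrays in the fit, by the exact permutation test or at an adjusted p under 0.05, 1 on the Cy3 channel alone or in the series matrix, and 0 to 3 when arrays were left out in turn, the 0 without replicate 2 of SOD1G93A and the 3 without replicate 1 or replicate 4 of wild-type mice. With array weights 3 were called, Serping1 (-0.527) being the third. The cause was not tested, except that the exact test asks for no overlap and the adjustment counts all probes.

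Of the other complement genes, main counts of 0 between genotypes became 2 at 40 and 1 at 80 days with mean signals, 3 and 3 with processed signals, 1 and 1 in the series matrix, and 3 and 1 with array weights. At 40 days there was 1 without loess and there were 3 without the filter on dim probes. At 80 days there was 1 with 16 arrays in the fit and there were 2 without both arrays that stood apart, an alternative chosen after seeing the data. Leaving arrays out in turn gave 0 to 7 at 40 days, the 7 without replicate 4 of wild-type mice, and 0 to 3 at 80 days, the 3 without replicate 3 of wild-type mice. Between the ages, the count of 7 in wild-type mice became 2 with bright backgrounds kept, 3 without loess, 4 with all arrays well above background, 2 by the exact test, 0 at an adjusted p, and 4 to 7 with arrays left out, the 4 without replicate 1 of 80 days. The count of 3 in SOD1G93A mice became 5 without background subtraction, 0 at an adjusted p, and 2 to 5 with arrays left out, the 5 without replicate 2 of 80 days. The share of all probes called was not counted in the alternative settings. No count given for them, of members or other genes, can therefore be set beside that share.

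With slide as a replicate block the calls of the members stayed at 2 at 40 days and 0 at 80 days, and 3 other complement genes were called between genotypes at 80 days. The deviations of same-numbered arrays correlated with a mean r between -0.0339 and 0.0484, so the numbers are not taken to pair the animals.

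Genotype differences that were near 0 turned their sign in some settings, and in none of these did they pass. C4b at 80 days was -0.00897 with bright backgrounds kept, -0.115 with array weights and -0.0304 without both arrays that stood apart, where C3 was 0.0606. Without loess, C1qa was -0.0129 and C4b -0.00676 at 40 days, and Serping1 was 0.0194 at 80 days. With array weights, C1qa was -0.0392 and C4b -0.114 at 40 days, and Serping1 was 0.0451 at 80 days. With arrays left out, C1qa ran from -0.0868 to 0.11 and C4b from -0.226 to 0.298 at 40 days. At 80 days C1qa ran from -0.263 to 0.351, C1qb from -0.067 to 0.309, C3 from -0.404 to 0.143, C4b from -0.244 to 0.228 and Serping1 from -0.128 to 0.122. Signal over background limits C3ar1 and the 11 other complement genes that no array measured well above background. The ages were not compared in the series matrix, which was normalized within each age.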
